A study of Mus musculus with 2 samples.

Results

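The complement system is a set of plasma and membrane proteins that marks cells and particles for removal and, at its end, makes pores in membranes. The classical pathway starts when C1q binds a surface and its partner proteases C1r and C1s cut C4 and C2, the lectin pathway starts from mannose-binding proteins and the Masp proteases, and the alternative pathway uses factor B. All routes meet at C3, and inhibitors in plasma and on the cell surface keep them in check. Hepatocytes are a major source of many of the plasma components, macrophages are a main source of C1q, and fibroblasts can make several components.

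The genes described here are 9 complement components and regulators: the components C3, C4b, Cfb, C1qa, C1qb and C1qc, the plasma inhibitor Serping1, and the membrane regulators Cd55 and Cd59a. They were found by gene symbol, whatever their status, among 20906 entries of the deposited table that carry a symbol, and each of the 9 had 1 entry. Messenger RNA was compared between 1 library of Dnmt1+/+ and 1 library of Dnmt1-/- mouse embryonic fibroblasts (MEFs), both cultured under standard conditions. In the cells called Dnmt1-/-, both copies of Dnmt1, the gene of the maintenance DNA methyltransferase, are a hypomorphic allele, and both the Dnmt1-/- and the Dnmt1+/+ cells are also null for trp53. The strain is given as unknown, and no age is given. With 1 library per genotype the spread between replicates is unknown, and the differences below are those of single libraries, given without p-values. A difference between the genotypes and a difference between these libraries cannot be told apart.

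Values are RPKM, in which reads are divided by transcript length and by the size of the library, and levels of different genes are compared on this scale. Changes are Dnmt1-/- minus Dnmt1+/+ of log2(RPKM + 0.1), a scale on which weakly expressed genes appear to change less than they did. A gene was called higher or lower when it passed 2-fold on this scale, with status OK from Cuffdiff and at least 1 RPKM in either library. Of 11244 genes kept in this way, 8.47% were called higher and 10.9% lower in Dnmt1-/- MEFs, and their median log2 change was -0.14. Dnmt1 itself was at 65.2 RPKM in Dnmt1+/+ and 14.5 RPKM in Dnmt1-/- MEFs, a log2 change of -2.16. Of 12 fibroblast markers, 10 reached 1 RPKM. The summed level of the 12 was 5804 RPKM in Dnmt1+/+ and 4758 RPKM in Dnmt1-/- MEFs, led in both by Vim, at 2269 and 1873 RPKM. The fibroblast markers were not uniform, with 2 called higher (Pdgfra and S100a4) and 3 called lower (Col1a2, Thy1 and Postn).

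Promoter sequences are shown for C3 and Cd59a, the members that reached 1 RPKM, and for Cd55, a member listed at 0 in both libraries, because the cells differ in the enzyme that maintains methylation at CG dinucleotides. Each is the 250 bases before the RefSeq transcription start, on the strand of the gene, in build GRCm38.p6, with every CG in capitals. The C3 window is chr17:57228137-57228386 on the minus strand, the Cd59a window chr2:104095551-104095800 on the plus strand, and the Cd55 window chr1:130462745-130462994 on the minus strand.
C3: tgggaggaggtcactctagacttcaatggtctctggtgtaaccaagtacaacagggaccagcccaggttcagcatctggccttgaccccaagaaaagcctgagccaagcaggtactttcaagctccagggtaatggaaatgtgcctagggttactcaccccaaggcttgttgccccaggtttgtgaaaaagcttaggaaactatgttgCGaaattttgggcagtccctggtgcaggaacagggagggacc
Cd59a: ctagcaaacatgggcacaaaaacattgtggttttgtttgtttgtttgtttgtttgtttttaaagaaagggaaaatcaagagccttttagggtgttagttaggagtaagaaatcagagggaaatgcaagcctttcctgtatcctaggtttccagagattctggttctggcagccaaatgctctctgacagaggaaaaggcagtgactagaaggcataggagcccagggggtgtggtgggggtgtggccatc
Cd55: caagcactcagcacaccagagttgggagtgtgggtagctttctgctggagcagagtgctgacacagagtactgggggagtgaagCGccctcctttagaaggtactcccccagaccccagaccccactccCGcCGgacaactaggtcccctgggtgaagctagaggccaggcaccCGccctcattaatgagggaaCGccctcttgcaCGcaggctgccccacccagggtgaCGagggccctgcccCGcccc

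The C3 window held 1 CG, the Cd59a window 0 and the Cd55 window 8. Among 32851 mouse promoter windows of the same length the median was 6, and 18.8% held 1 CG or none, 7.87% none, and 59.7% as many as Cd55 or fewer. The base composition of the windows differed, at 52% G or C for C3, 44.8% for Cd59a and 64% for Cd55. Relative to that composition, the observed count was 0.0597 of the expected one for C3 and 0.315 for Cd55. RefSeq promoters were matched for 5 of the 9 members, and the others of these were C1qb with 6 CG and C1qc with 2. C4b, Cfb, C1qa and Serping1 had no match. Low CG counts were not particular to the members called higher, since C1qc, listed at 0, also had fewer than the median window. Among promoter windows of other complement genes the median was 3 CG for 5 windows of genes called higher and 5 for 3 windows of genes within 2-fold. It was 4 for 26 windows of genes that failed the filter, against 6 for all windows. The ranges of these groups overlapped, at 1 to 5, 2 to 15 and 0 to 41 CG. Some of the other complement genes have more than 1 window. Of the 9 called higher, 5 had a window, and C1s, C2, Masp1 and Clu had none. Methylation of these windows was not analysed here.

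**Figure D1:**
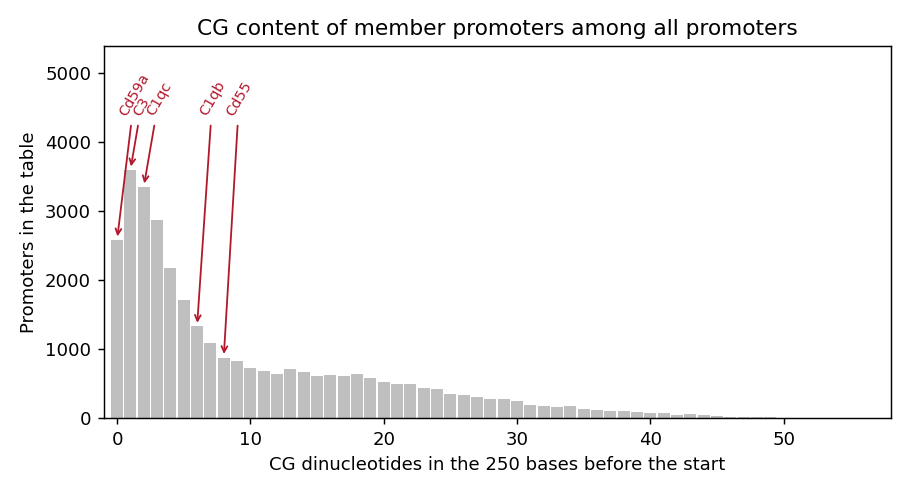
Number of RefSeq promoter windows (vertical axis) by their count of CG dinucleotides in the 250 bases before the start (horizontal axis), with arrows at the 5 members that were matched. Cd59a, C3 and C1qc sit in the leftmost bins at 0, 1 and 2 CG, C1qb sits at the median of 6 and Cd55 at 8.

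Of the 9 members, 5 had a higher RPKM in Dnmt1-/- than in Dnmt1+/+ MEFs, 4 were listed at 0 in both libraries and none had a lower RPKM. Of these 5, C4b, Cfb and Serping1 were under 1 RPKM in both libraries. The share of all entries with a higher RPKM in Dnmt1-/- MEFs was not computed, so no common direction is read from this count. The complement members were expressed at low levels, and 7 of the 9 were under 1 RPKM in both libraries. C3 and Cd59a were kept and both were called higher, against 8.47% of all genes kept. Both passed the minimum of 1 RPKM only through the Dnmt1-/- library, so that their count is a description of these 2 genes.

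**Figure D2:**
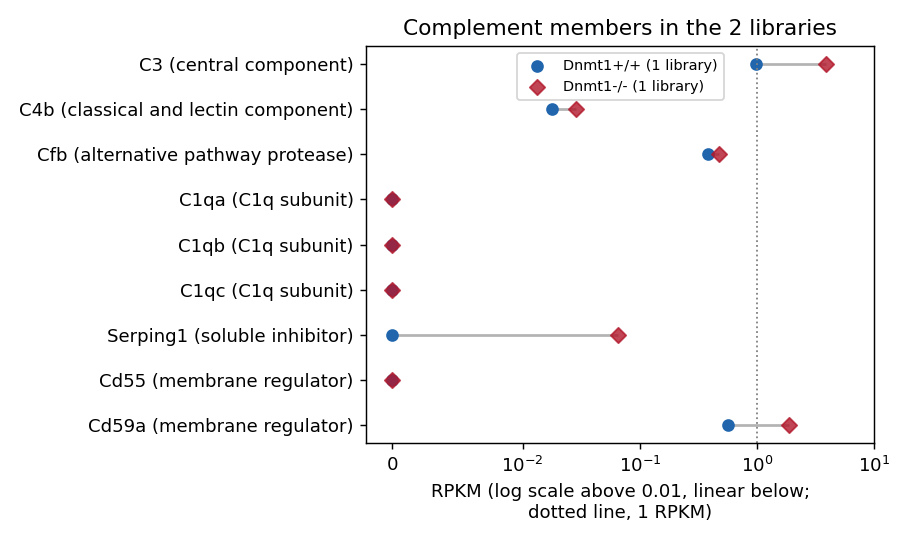
RPKM (horizontal axis, log scale above 0.01 and linear below) of the 9 members in the Dnmt1+/+ library (circles) and the Dnmt1-/- library (diamonds), joined by a line for each gene. Only C3 and Cd59a lie to the right of the dotted line at 1 RPKM, and only in Dnmt1-/-, while C1qa, C1qb, C1qc and Cd55 are at 0 in both.

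C3, the component on which all pathways converge and whose cleavage tags a surface, had the highest RPKM of the members in each library. It was at 0.972 RPKM in Dnmt1+/+ and 3.85 RPKM in Dnmt1-/- MEFs, a ratio of 3.96 and a log2 change of 1.88. In Dnmt1+/+ its level exceeded that of 48.4% of 20811 entries with a symbol, and in Dnmt1-/- that of 59.8%. Of these entries, 28.7% in Dnmt1+/+ and 26.9% in Dnmt1-/- MEFs were at 0 RPKM, so a rank near the middle is still a low level. In mm9 the gene spans 57343397 to 57367559 of chromosome 17, on the minus strand, with 41 exons. The 4 neighbouring genes kept within 100 kb of C3 included 2 that were called higher. Both lie at the far edge of this interval, 96215 bp away: Tnfsf9, a cytokine of the TNF family, was at 0.463 and 1.84 RPKM, and Gm11110, at the same locus, was at 0.0969 and 1.09 RPKM. The nearer neighbours of C3, Gpr108 and Trip10, stayed within 2-fold.

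C4b encodes C4, which C1s and Masp2 cut, and whose larger fragment joins C2 to form the C3 convertase of the classical and lectin pathways. It was at 0.0178 RPKM in Dnmt1+/+ and 0.0287 RPKM in Dnmt1-/- MEFs, close to 0 in both. Cfb encodes factor B, the protease of the alternative pathway convertase. Its level of 0.382 RPKM in Dnmt1+/+ and 0.473 RPKM in Dnmt1-/- MEFs differed by a ratio of 1.24, within 2-fold and under the minimum of 1 RPKM. C4b has a close paralog, C4a, at 0.115 and 0.0534 RPKM, with which reads could be shared, so the C4b value is uncertain.

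C4b and Cfb lie near each other on the minus strand of chromosome 17 in the class III region of the major histocompatibility complex. In mm9, C4b spans 34865325 to 34880827, with 41 exons, and Cfb 34993319 to 34999463, with 18 exons. C2, the protease partner of C4 in the classical and lectin convertase and a close relative of factor B, is next to Cfb on the same strand, and the deposited loci are 87 bp apart. C2 was at 0.341 RPKM in Dnmt1+/+ and 9.04 RPKM in Dnmt1-/- MEFs, a log2 change of 4.37, whereas that of Cfb was 0.25. The annotation also holds Gm20547, a protein-coding gene on the same strand that overlaps both the Cfb and the C2 loci, and the division of reads among the 3 is uncertain. On the other side of Cfb, Rdbp was at 54.8 and 61.4 RPKM and Skiv2l at 21.1 and 16.6 RPKM, both within 2-fold. Tnxb, which encodes the matrix protein tenascin-X and is 8565 bp from C4b, was at 0.118 and 1.96 RPKM and was called higher. C2 and Tnxb were thus called higher beside genes that stayed within 2-fold and beside C4b and Cfb at low levels in both libraries.

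**Figure D3:**
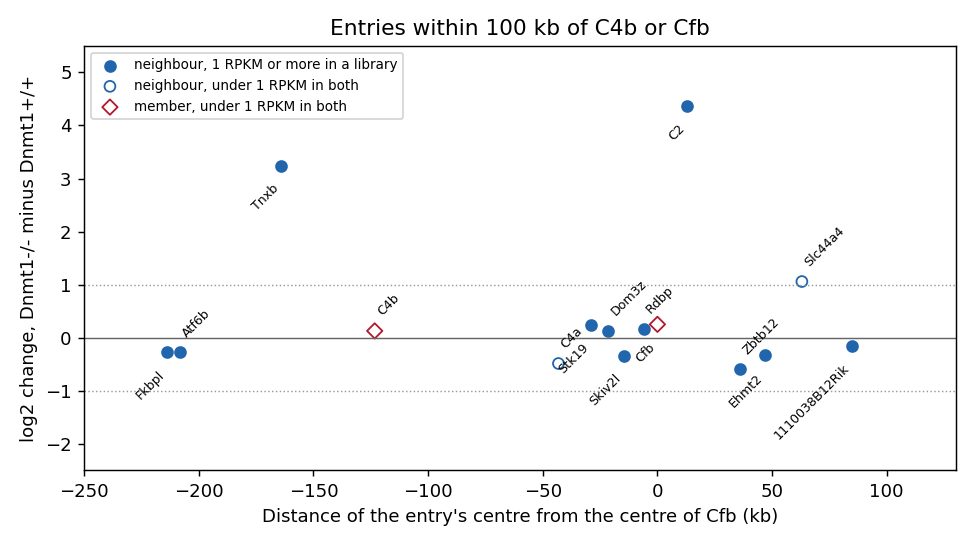
Log2 change from Dnmt1+/+ to Dnmt1-/- MEFs on the log2(RPKM + 0.1) scale (vertical axis) for entries within 100 kb of C4b or Cfb, by distance of the entry's centre from that of Cfb in kb (horizontal axis). Filled circles are neighbours that reached 1 RPKM, open circles neighbours that did not, and open diamonds the members C4b and Cfb, also under 1 RPKM. C2, at 4.37, and Tnxb, at 3.24, are the filled circles above the dotted line that marks 2-fold.

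C1qa, C1qb and C1qc encode the A, B and C chains of C1q, the recognition subunit of the classical pathway. All of them were listed at 0 RPKM in both libraries, with status NOTEST. The genes form a cluster on the minus strand of chromosome 4 in mm9, with C1qb from 136436044 to 136442102, C1qc from 136445719 to 136448980 and C1qa from 136451832 to 136454718, each with 3 exons. Their neighbours Ephb2 and Zbtb40 were kept and stayed within 2-fold. Of 16 macrophage markers, 12 were under 1 RPKM in both libraries, and Ptprc, Emr1, Fcgr1, Laptm5 and Tyrobp were listed at 0 in both. The summed level of the 16 was 12.3 RPKM in Dnmt1+/+ and 14.2 RPKM in Dnmt1-/- MEFs. The markers that were kept did not move together: Csf1r was at 0.0702 and 6.08 RPKM, Cd68 at 0.596 and 3.63, and Cd14 at 1.51 and 3.23, all called higher, while Cd74 was at 9.92 and 0.908 RPKM and was called lower. All C1q chains were thus listed at 0 in both libraries, as were 5 of the 16 macrophage markers, while 3 of the 16 were called higher and 1 lower.

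Serping1 encodes the C1 inhibitor, which inactivates C1r, C1s and the Masp proteases. It was listed at 0 RPKM in Dnmt1+/+ and at 0.0651 RPKM in Dnmt1-/- MEFs, with status NOTEST, so no fold is given. The gene spans 84605544 to 84615601 of chromosome 2 in mm9, on the minus strand, with 8 exons. Of 9 neighbours kept within 100 kb, 8 stayed within 2-fold. The exception was Slc43a1, an amino acid transporter 63949 bp away, at 1.37 and 0.0763 RPKM, which was called lower.

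Cd55 and Cd59a encode proteins that are anchored in the outer leaflet of the plasma membrane and protect a cell from its own complement. Cd55, decay-accelerating factor, takes C3 convertases apart, and was listed at 0 RPKM in both libraries with status NOTEST. Its paralog Cd55b, listed under the older symbol Daf2, was at 0 in both as well. Cd55 spans 132335604 to 132359321 of chromosome 1 in mm9, on the minus strand, with 10 exons.

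Cd59a blocks assembly of the membrane pore. It was measured at 0.564 RPKM in Dnmt1+/+ and 1.87 RPKM in Dnmt1-/- MEFs, a ratio of 3.31 and a log2 change of 1.57. With a pseudocount of 1 RPKM in place of 0.1 the log2 change was 0.87, which is no longer past 2-fold. In mm9 Cd59a spans 103935958 to 103955511 of chromosome 2, on the plus strand, with 5 exons. The deposited locus starts upstream of this, at 103911166, and takes in 20179 bp of the annotated paralog Cd59b, so the reads behind the value may come from either gene. The only neighbour kept, Fbxo3, was at 22.2 and 14.5 RPKM, within 2-fold.

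In all, 29 neighbouring genes with status OK lay within 100 kb of a member and 27 of them were kept. Of these 27, 22 stayed within 2-fold, 4 were called higher and 1 lower. Among all genes kept the shares were 8.47% and 10.9%. The 4 called higher (Gm11110, Tnfsf9, Tnxb and C2) passed the minimum of 1 RPKM only through the Dnmt1-/- library. Slc43a1, called lower, passed it only through the Dnmt1+/+ library. Gm11110 and Tnfsf9 lie at the same locus, and C2 is counted again among the other complement genes below. The neighbour counts are therefore a description of these genes.

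The other genes of the pathway were taken from a list of 46, of which 44 were found in the table. The 44 comprised 13 listed at 0 in both libraries, 18 with a higher and 13 with a lower RPKM in Dnmt1-/- MEFs. The shares of all entries in each direction were not computed, so this split is a description. Of the 44, 31 failed the filter and 13 were kept, and 9 of the 13 were called higher and 0 lower. Since C2, Hc and C3ar1 passed only through the Dnmt1-/- library, the genes that already reached 1 RPKM in Dnmt1+/+ were also counted alone. There were 10 of these, and 6 of them (C1ra, C1rb, C1rl, C1s, Masp1 and Clu) were called higher, 0 lower and 4 within 2-fold, with a median log2 change of 1.29. Of all 10691 genes that reached 1 RPKM in Dnmt1+/+, 4.35% were called higher and 11.5% lower, and the median log2 change was -0.18. Neighbouring paralogs among the 6 are not independent, since C1ra, C1rb, C1rl and C1s lie together on chromosome 6, C1ra and C1rb are paralogs that could share reads, and the entries of C1rb and C1s have the same deposited locus.

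C1s and C1ra had the highest levels of the classical pathway genes in both libraries. C1s, which cuts C4 and C2, was at 9.22 RPKM in Dnmt1+/+ and 67.7 RPKM in Dnmt1-/- MEFs, a log2 change of 2.86, in an entry shared with Gm5077. C1ra, which encodes the C1r protease that activates C1s, was at 4.81 and 19.3 RPKM, its paralog C1rb at 1.94 and 7.28 RPKM, and the related C1rl at 2.23 and 5.25 RPKM. The C1r and C1s genes were thus well above C1q, their partner in the C1 complex, in both libraries, and above Serping1, their inhibitor. With a pseudocount of 1 RPKM the log2 change of C1rl was 0.95, no longer past 2-fold.

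In the lectin pathway Masp1, the protease that activates Masp2, was at 31.0 and 80.8 RPKM, a log2 change of 1.38. The deposited locus of Masp1 runs to 23614308 in mm9, past the annotated end of the gene at 23520676. Whether reads from outside the gene add to its value was not tested. Colec12, a membrane collectin that acts as a scavenger receptor, was at 48.9 and 44.9 RPKM, within 2-fold. Of 9 lectin pathway genes found, 7 were under the filter. In the alternative pathway Cfp, which encodes properdin, was at 1.98 and 1.28 RPKM, within 2-fold, and Cfd was listed at 0 in both libraries.

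Hc, which encodes C5, was the one gene kept of 6 terminal components found, at 0.0302 RPKM in Dnmt1+/+ and 4.29 RPKM in Dnmt1-/- MEFs, a log2 change of 5.08. C6, C8a and C8b, which follow C5 in building the pore, were listed at 0 in both libraries. The other terminal genes found were also under the filter, with C8g at 0.946 and 0.734 RPKM and C9 at 0 and 0.0688 RPKM. C7 was not found. C3ar1, the receptor of the C3 fragment C3a, was at 0.128 and 1.69 RPKM, a log2 change of 2.97, and was the one gene kept of 8 receptors.

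Among the regulators, Clu, which encodes the chaperone and pore inhibitor clusterin, was at 15.3 and 58.4 RPKM, a log2 change of 1.92. C1qbp, a mitochondrial protein that can bind C1q, was the most abundant gene of the list at 224.8 and 354.4 RPKM, within 2-fold. Cr1l, a rodent membrane regulator that acts on C3 convertases as Cd55 does, was at 8.02 and 5.62 RPKM, also within 2-fold. Cr1l thus had the highest level of the membrane regulators found in each library, above Cd59a and Cd55.

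**Figure D4:**
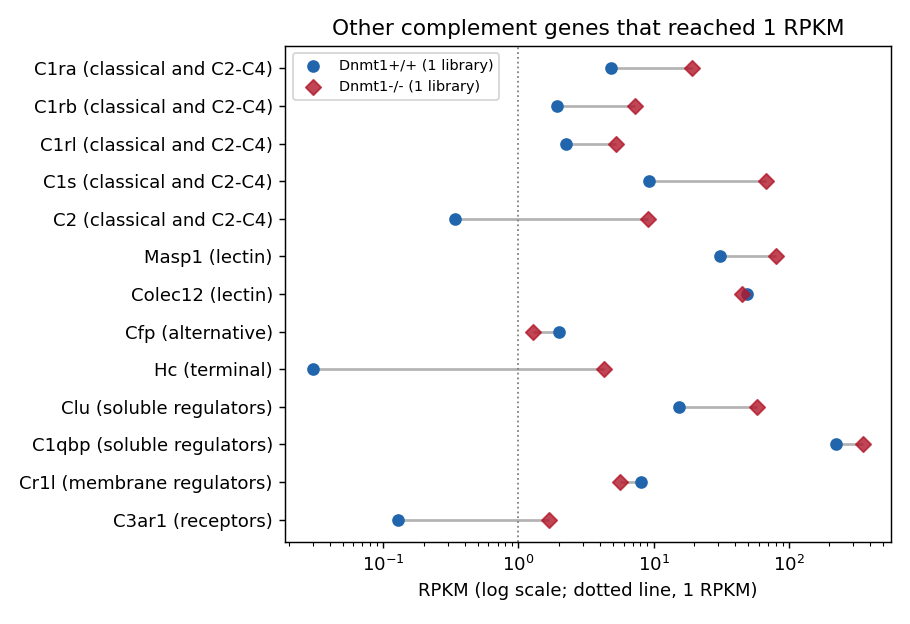
RPKM (horizontal axis, log scale) of the 13 other complement genes with 1 RPKM or more in either library, with Dnmt1+/+ as circles and Dnmt1-/- as diamonds. The diamond lies to the right for the 9 genes called higher and for C1qbp, and to the left for Colec12, Cfp and Cr1l, which stayed within 2-fold.

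Of the factors that are known to induce complement genes, 11 were found and 7 were kept, of which 6 stayed within 2-fold. Irf1 was at 12.9 and 21.3 RPKM, Cebpb at 36.5 and 47.0, Rela at 33.8 and 39.2, Stat3 at 22.5 and 25.0, Nfkb1 at 25.4 and 15.4, and Cebpd at 8.52 and 4.57 RPKM. The deposited locus of Cebpd runs to 16146926 in mm9, far past the annotated end at 15888559, so its value is uncertain. The cytokines Il1b and Ifng were listed at 0 in both libraries, and Il6 was at 0.0207 and 0.0557 RPKM.

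Markers of other cell types that make or regulate complement were mostly low. Of 8 hepatocyte markers, 7 were under 1 RPKM in both libraries and Alb was listed at 0, while Apob was at 0.0109 and 1.46 RPKM and was called higher. The summed level of the 8 was 0.0771 RPKM in Dnmt1+/+ and 1.88 RPKM in Dnmt1-/- MEFs. All 6 endothelial markers were under 1 RPKM in both libraries, with sums of 0.475 and 0.679 RPKM. Of 5 epithelial markers found, only Krt19 was kept, at 6.90 and 0.326 RPKM, and was called lower. The sums for the 5 were 7.19 and 1.06 RPKM, and Krt19 made up most of the Dnmt1+/+ sum. The other 4 were under 1 RPKM in both libraries and did not move together. Of the 5, 3 had a lower RPKM in Dnmt1-/- MEFs and 2 a higher one, Krt8 at 0 and 0.216 and Krt18 at 0.0358 and 0.441 RPKM. The part of other cell types in the complement values was not tested.

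**Figure D5:**
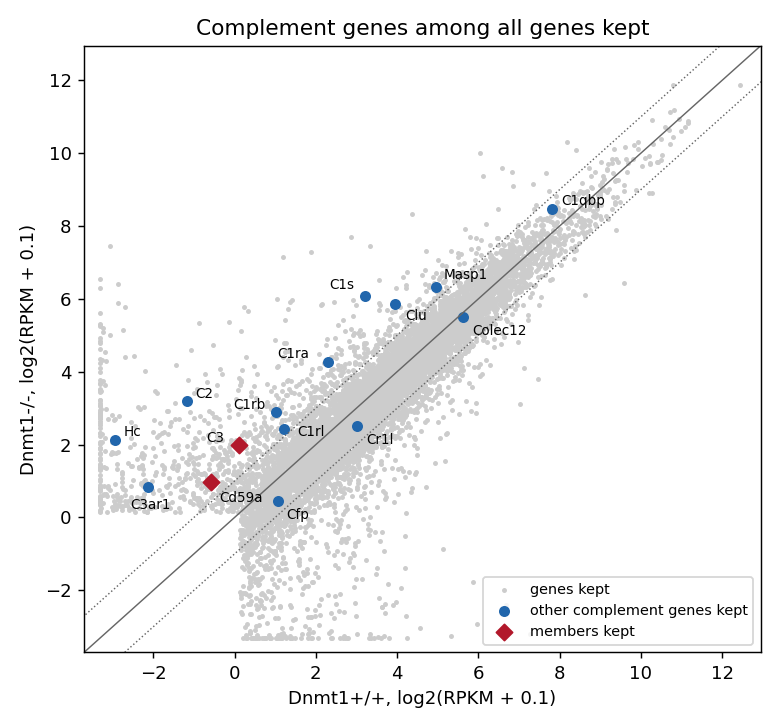
Level of each of the 11244 genes kept in Dnmt1+/+ (horizontal axis) and Dnmt1-/- MEFs (vertical axis), both as log2(RPKM + 0.1), with the members that were kept as diamonds and the other complement genes that were kept as dark circles. The solid line marks equal levels and the dotted lines 2-fold. C3, Cd59a and 9 of the 13 other genes lie above the upper dotted line and none lies below the lower one.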

How the data were processed

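Strand-specific mRNA libraries, 1 for each genotype, were made from total RNA of Dnmt1+/+ and Dnmt1-/- MEFs. The paper states that total RNA was isolated in triplicate. Whether a library was made from 1 of these isolates or from several is not given in the sources used here. After alignment to mm9 by TopHat and assembly by Cufflinks, the authors deposited RPKM values and a status per entry from Cuffdiff. Program versions, scaling between libraries and the use of strand in assigning reads are not given in the sources used here. The paper gives the number of mapped reads of each library. The table holds no counts, and the reads behind each value were not derived here. No interval or detection limit was computed. Columns were assigned to genotypes by their names (wild type and knock-out).

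Changes were differences of log2(RPKM + 0.1). Genes kept had status OK, a symbol and at least 1 RPKM in either library, and called means past 2-fold. Coordinates are 1-based GENCODE M1 positions in NCBI37 (mm9). Of 10978 kept genes with an annotated symbol, 99.8% overlapped the annotated gene. Promoter windows are from RefSeq (GRCm38.p6), whose coordinates were not combined with mm9. Members and lists were chosen with earlier results of these data known. All 9 members were named, with other complement genes and inducers that reached 1 RPKM, neighbours past 2-fold, and the most abundant markers, except that some genes of the lists are not reported here. Genes under 1 RPKM in both libraries, neighbours within 2-fold and individual markers given by name beyond this rule were picked once the values had been seen. The fold rule was checked on simulated data, made by known shifts of the Dnmt1+/+ values without noise. That check covers the code only and cannot show how reliable calls from single libraries are. Python 3.11.15, numpy 2.4.6, pandas 2.3.3 and matplotlib 3.10.9 were used.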

Additional observations from a re-analysis of the deposited data

How the results depend on the processing

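C3 was past 2-fold under each alternative tried, with a log2 change of 1.30 with a pseudocount of 1 RPKM, 1.97 with 0.01, 2.02 after subtraction of the median change and 1.99 for the plain ratio, which was added after seeing the data. For Cd59a these values were 0.87, which is not past 2-fold, 1.71, 1.71 and 1.73. The number of members called higher was therefore 1 with a pseudocount of 1 RPKM. It was 2 under the other 5 alternatives, and 0 members were called lower under any of the 6. Between 8 and 10 other complement genes were called higher. The number called lower was 2 with no filter on low RPKM (Susd4 is 1 of them) and 1 (Cfp) with a 1.5-fold threshold. Within 50 kb of a member, 2 neighbours were called higher and 0 lower. No paired analysis was possible because each genotype has 1 library. For the same reason no library could be left out.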
